A study of Mus musculus with 19 samples.

Results

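A set of 386 STRA8 binding summits at the promoters of 386 protein-coding genes is described here. It was drawn from the 5687 summits of the first of 3 chromatin immunoprecipitation (ChIP-seq) replicates from Stra8 FLAG/FLAG mouse testes. A summit is the base at which read density in a called peak is highest, and its score is the −log10 of the peak's p-value. A summit was kept if its score was under 30, if FLAG/FLAG replicates 2 and 3 each had a summit within 200 bp, if no wild-type replicate had one within 1 kb, and if transcription start sites (TSSs) of exactly 1 protein-coding gene lay within 1 kb. The summits were thus chosen by their measured scores, by their presence in all 3 replicates and by their absence from wild type, so that scores, reproducibility and absence from wild type are given as descriptions with no test. The RNA-seq libraries and the DNA sequence were not used in the choice.

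The ChIP-seq mice were Stra8 FLAG/FLAG, which carry a FLAG tag at the N-terminus of STRA8, or wild type, on a C57BL/6 background with under 4% of 129. Chromatin came from whole testes, not from sorted cells, and was precipitated with a FLAG antibody in 3 replicates per genotype. The tag marks the long STRA8 isoform, and STRA8 is also made by some spermatogonia, so that the summits need not come from a single cell type. The RNA-seq mice were C57BL/6, and all carried Ddx4-Cre and a Rosa26 tdTomato reporter, both heterozygous, so that germ cells were fluorescent. Sorted preleptotene germ cells came from 3 Stra8-/- animals (Stra8-deficient) and from Stra8+/- animals whose testis biopsy showed weak (low-STRA8, 2 libraries) or strong (high-STRA8, 2 libraries) STRA8 staining. All mice of both assays received WIN18,446, which blocks retinoic acid synthesis, from postnatal day 2 to 8, then retinoic acid on day 9, and tissue was taken 6.75 days later.

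STRA8 is induced by retinoic acid in germ cells and is required for their entry into meiosis. It binds DNA near gene starts, and its targets include genes of the meiotic programme as well as genes of the mitotic cell cycle that are used again in the S phase before meiosis. Preleptotene cells are the germ cells that replicate their DNA in that S phase. Promoters of widely used mammalian genes are often CpG islands, GC-rich stretches that keep their CpG dinucleotides and lie open in many cell types.

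Sequences at 8 of the summits follow, read along the gene's strand from the RefSeq GRCm38.p6 assembly, which has the coordinates of mm10. Capitals mark CNCCTCAG, or its reverse complement CTGAGGNG, the motif that the study derived from pooled reads of the same 3 FLAG/FLAG libraries, which is therefore not independent of them. Htt, Fnbp1l, Numb and Pik3c2a are the 4 genes whose summit windows of 100 bp held 2 matches, the most of any. Hykk and Prdm9 are genes among the largest increases that had a match, and Spo11 is the recombination gene whose window begins with one. Where more than 30 bases of a window lie in an untranslated region, only the 30 bases around a match are shown.
Htt, chr5:34761968-34762067, plus strand: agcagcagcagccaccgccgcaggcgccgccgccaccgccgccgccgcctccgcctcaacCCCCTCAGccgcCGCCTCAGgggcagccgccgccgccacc
Fnbp1l, chr3:122619551-122619580, minus strand: ccggcgccagtCGCCTCAGgttccgccatg
Fnbp1l, chr3:122619602-122619631, minus strand: gacgCTGAGGAGgggaaagtcgggacgaga
Numb, chr12:83921778-83921807, minus strand: gcgaggcgggcCTGAGGTGcggaggcggtg
Numb, chr12:83921832-83921861, minus strand: gaggtagagtCTGAGGCGccggagttgttc
Pik3c2a, chr7:116443370-116443399, minus strand: ggctgagccagCTGAGGCGggagaaaaaca
Pik3c2a, chr7:116443394-116443423, minus strand: cagtcgaagctCTCCTCAGcggccggctga
Hykk, chr9:54917374-54917403, plus strand: agggtctctCTGAGGGGacatccccgagaa
Prdm9, chr17:15564021-15564120, minus strand: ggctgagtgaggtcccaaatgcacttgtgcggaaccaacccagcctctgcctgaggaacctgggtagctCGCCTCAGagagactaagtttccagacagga
Spo11, chr2:172979755-172979854, plus strand: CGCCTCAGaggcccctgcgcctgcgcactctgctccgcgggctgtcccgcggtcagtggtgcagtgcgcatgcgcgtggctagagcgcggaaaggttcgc
Wbp2nl, chr15:82299203-82299302, plus strand: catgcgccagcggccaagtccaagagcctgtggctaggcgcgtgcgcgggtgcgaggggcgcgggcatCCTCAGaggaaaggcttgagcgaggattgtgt
Wbp2nl is a strongly raised gene without a match, and there the capitals mark the shorter core CCTCAG. It is not typical in this, since the windows of Stra8, Ucp2 and Baiap2, also among the largest increases, held neither CNCCTCAG nor the core. The Htt window lies within the coding repeat region of its first exon, a run of CAG and CCG-type repeats, and the matches fall in its GC-rich second part.

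Scores of the 386 summits in replicate 1 ran from 5.55 to 29.96 with a median of 20.4. In replicate 2 the partner summits ran from 6.09 to 49.2 with a median of 14.6, and in replicate 3 from 6.16 to 36.8 with a median of 11.9. The score was at least 30 at 25 of the partner summits of replicate 2 and at 2 of those of replicate 3, so that most summits were moderate in every replicate. All 3 scores were under 10 at 3 summits and 20 or more at 14. Over the 386 summits Spearman's rho between replicates was 0.36 for replicates 1 and 2, 0.30 for 1 and 3, and 0.22 for 2 and 3. These summits share the same genotype and antibody, and the values describe a range of scores that the rule had cut at 30. The 510 summits that met the same rules with a score of 30 or more, called strong summits below, had rho of 0.64, 0.63 and 0.63.

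**Figure D1:**
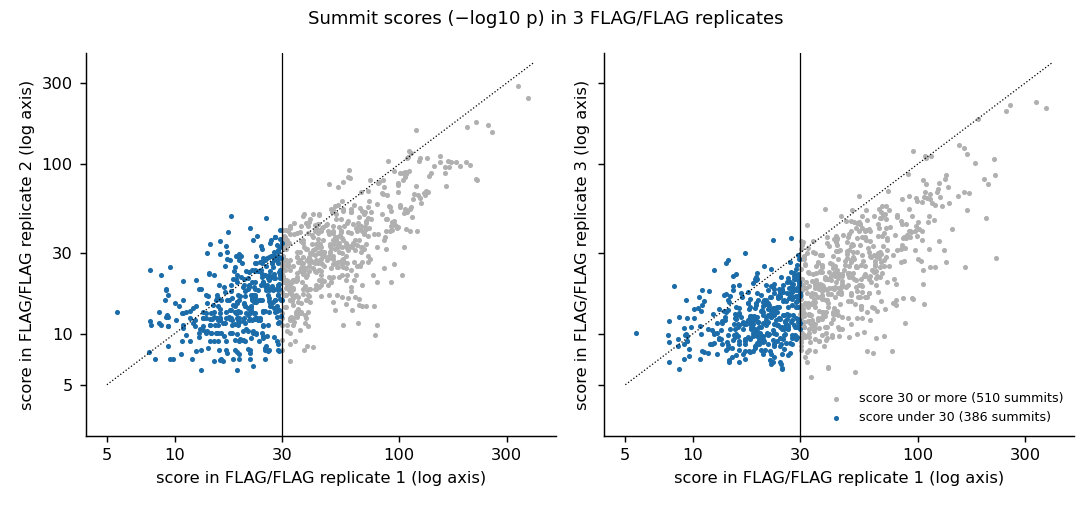
Score (−log10 p) of each summit in FLAG/FLAG replicate 1 against its partner in replicate 2 (left) and replicate 3 (right), on log axes, with the 386 summits under 30 in blue and the 510 strong summits in grey. The vertical line is the limit of 30 and the dotted line marks equal scores; 114 of the 386 summits lie above it in replicate 2 and 53 in replicate 3.

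The limit of 30 separates neighbours that differ little. Just inside it, Ifnar1, a subunit of the type I interferon receptor, and Phf21a, a chromatin-associated PHD finger protein, both scored 29.96. Just outside, Ppp1r3e and Usp31 both scored 30.07. In replicates 2 and 3 Ifnar1 had 34.34 and 17.37, Phf21a 15.80 and 16.59, Ppp1r3e 17.73 and 13.05, and Usp31 15.73 and 16.70. Of these 4, only Ifnar1 scored over 30 in another replicate.

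Reproducibility was the criterion that removed most summits. Of 4691 summits of replicate 1 with a score under 30, 3124 lay at single-gene promoters, and 48 of these had a wild-type summit within 1 kb. Among the remaining 3076, a partner was found in both other replicates for 386 (12.5%), in replicate 2 alone for 716, in replicate 3 alone for 178 and in neither for 1796. At 30 or more, 510 of 725 (70.3%) had partners in both. The nearest wild-type summit to any of the 386 was 1810 bp away, the median was 732 kb, and 4 had one within 10 kb. FLAG/FLAG replicates 2 and 3 held 3299 and 2035 summits in all and the wild-type replicates 798, 45 and 164. Replicates 1 and 2 were made with one library kit and replicate 3 with another, and its part in the lower counts and scores of replicate 3 was not tested.

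The partner summits lay close by. The median distance was 64 bp to the summit of replicate 2 and 52 bp to that of replicate 3, and 155 (40.2%) and 188 (48.7%) lay within 50 bp. All 3 summits fell within 50 bp of each other at 72 promoters (18.7%), the median span was 101 bp and the widest was 360 bp. Strong summits had medians of 42 and 40 bp and a median span of 66.5 bp, and their 3 summits fell within 50 bp at 180 promoters (35.3%).

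The summits sat on the start sites of their genes. The median summit lay 19.5 bp downstream of the nearest TSS, with quartiles from 73.5 bp upstream to 107.75 bp downstream, whereas the rule allowed 1 kb on either side. Within 100 bp of a TSS lay 210 summits (54.4%), within 200 bp 299 (77.5%) and within 500 bp 368 (95.3%). Downstream of the TSS lay 215 (55.7%), upstream 169 and at the TSS base itself 2. The summit base was in an untranslated exon in 163 cases (42.2%), outside the gene in 114 (29.5%), in an intron in 76 (19.7%) and in a coding exon in 33 (8.55%). Among strong summits 254 (49.8%) lay within 100 bp of a TSS and the median was 6.5 bp downstream. One of the most distant was the summit of Stra8 itself, which lay 954 bp downstream of the TSS in an intron at position 34921964 of chromosome 6.

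**Figure D2:**
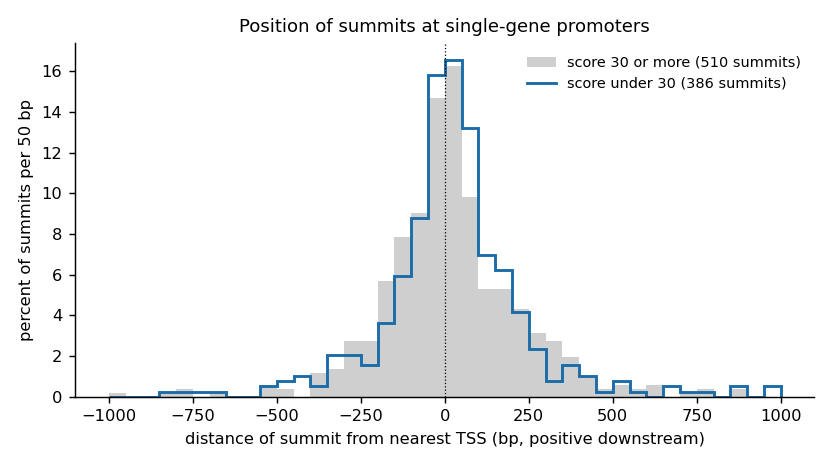
Percent of summits per 50 bp against the distance of the summit from the nearest TSS of its gene in bp, with positive values downstream. The 386 summits under 30 (blue line) and the 510 strong summits (grey) both peak at the TSS, with 54.4% and 49.8% within 100 bp.

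The 386 genes were spread over 20 chromosomes, with 41 on chromosome 11 and 7 on the X chromosome. A single annotated TSS lay within 1 kb of the summit for 178, and the most was 14 TSSs of 1 gene. The start of a long non-coding RNA lay within 1 kb at 47 promoters (12.2%), on the opposite strand in 44 of them, against 79 of the strong summits (15.5%). Reads from non-coding RNAs were not part of the gene levels below.

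The windows of 100 bp around the summits were GC-rich. Their median GC content was 71.0% (range 48.0 to 85.0%), and the median ratio of observed to expected CpG was 0.93, with 354 windows (91.7%) at 0.6 or more, a usual limit for CpG islands. The same summits had 53.0% GC and a ratio of 0.57 in windows 500 bp to either side. At the TSSs of all protein-coding genes the medians were 60% and 0.64. Strong summits (72.0% and 0.96) and summits under 30 without any partner (73.0% and 0.94) were much alike in this respect, so that base composition differed little between reproducible and non-reproducible summits.

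CNCCTCAG was found on either strand in 56 of the 386 windows, 14.5% (95% Wilson interval 11.3 to 18.4%), and 4 of them held 2 matches. In strong summits it was found in 132 of 510 windows, 25.9% (22.3 to 29.9%), and in summits under 30 with a partner in 1 or in no other replicate in 10.3% (8.47 to 12.5%) and 5.46% (4.5 to 6.61%). The windows 500 bp to either side of the 386 summits held it in 3.24% (2.2 to 4.74%), and windows at the TSSs of all protein-coding genes in 3.28% (3.05 to 3.53%). The interval of the 386 summits lay below that of strong summits, overlapped that of summits with 1 partner, and lay above the other 3. These intervals cover counting error only, and windows of different base composition were not matched. Of the 60 matches, 26 read CNCCTCAG along the gene's strand and 34 on the other strand.

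**Figure D3:**
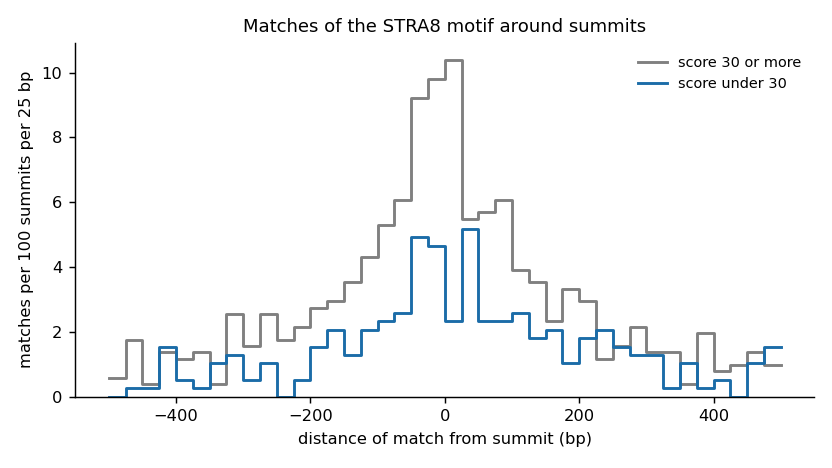
CNCCTCAG matches on either strand per 100 summits and 25 bp, against their distance from the summit in bp, for summits under 30 (blue) and strong summits (grey). Within 50 bp the 386 summits had 4.27 matches per 100 summits and 25 bp against 0.778 beyond 250 bp; strong summits had 8.73 against 1.33.

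Matches gathered at the summit itself. Of 236 matches within 500 bp of the 386 summits, 66 (28.0%) lay within 50 bp, against 178 of 609 (29.2%) for strong summits. The core CCTCAG was present in 119 windows (30.8%), against 40.2% of strong summits, 10.5% at all TSSs and 9.07% of the flanking windows, and it includes every CNCCTCAG match. Some motifs of general promoter factors were counted alongside, again on both strands. GGGCGG, the GC box bound by SP factors, was in 36.0% of the windows, 47.1% of strong summits, 28.7% of TSS windows and 13.9% of flanks. GCCNNNGGC, bound by AP-2 factors, was in 18.1%, against 15.3%, 8.51% and 5.83% in that order, and CCAAT, bound by NF-Y, was in 6.48%, against 6.27%, 13.9% and 12.3%. In summits under 30 with a partner in 1 or in no other replicate, GCCNNNGGC was in 15.9% and 18.5%, and GGGCGG in 44.6% and 44.8%. CACGTG, the E-box bound by basic helix-loop-helix factors, was in 4.66% and CCGGAAGT, bound by ETS factors, in 4.15%, against 3.25% and 3.34% of TSS windows. Of the sites of E2F factors, TTTGGCGC was in 0 of 386 windows (0.275% of TSS windows), TTTCCCGC in 1.04% (0.517%) and GGCGGGAA, bound by E2F6, in 3.11% (1.08%).

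Within the set, whose replicate 1 scores the rule had cut at 30, summits without a match and with 1 match had similar median scores. The cut limits how far these scores could differ. Across it, the share of windows with a match was 14.5% here and 25.9% in strong summits. The 330 without a match had median scores of 20.1, 14.3 and 11.9 in the 3 replicates, the 52 with 1 match 21.1, 16.9 and 12.3, and the 4 with 2 matches 26.2, 21.3 and 10.3. Over the 386 summits Spearman's rho between the number of matches and the score was 0.11, 0.12 and 0.03 in replicates 1, 2 and 3.

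The RNA-seq libraries held 25049625 to 30015072 estimated counts, and 384 of the 386 genes passed 1 TPM, a share of a library's transcripts corrected for length, in at least 1 library and were tested among 12532 genes. Mapt and Gm11639 did not. Most of the genes were expressed with or without STRA8: 381 of 384 (99.2%) exceeded 1 TPM on average in Stra8-deficient cells, against 94.3% of all tested genes. The share was also 99.2% for genes with a summit under 30 and a partner in neither replicate. It was 92.0% for genes without a summit of replicate 1. All tested genes had by choice passed 1 TPM in at least 1 library. The targeted gene followed the labels, with Stra8 at 5.16 to 22.8 TPM in Stra8-deficient, 236 to 315 in low-STRA8 and 1099 to 1248 in high-STRA8 libraries; since it was deleted and the other groups were set by STRA8 staining, its level is a check of the labels and not a result. Of the genes that mark germ cells all 7 exceeded 1 TPM, with sums of 3060 to 4310 TPM in Stra8-deficient, 3400 to 3930 in low-STRA8 and 6500 to 6850 in high-STRA8 libraries, although Ddx4, Stra8 and Sycp3 on that list belong to the 386. Markers of other cells differed between groups too. The sum over 10 macrophage and blood cell markers was 10.8 to 37.6, 46.8 to 52.2 and 2.03 to 9.17 TPM in that order of groups. Over 15 Sertoli cell markers it was 1220 to 1500, 754 to 1130 and 1170 to 1190 TPM, led by Dmrt1, which spermatogonia also express. Over 12 markers of undifferentiated spermatogonia it was 240 to 260, 164 to 175 and 137 to 138 TPM. Leydig cell markers summed to at most 18.9 TPM and peritubular and endothelial markers to at most 59.7. Of 11 markers of later germ cells, 3 exceeded 1 TPM, with sums of 1640 to 2510, 565 to 717 and 1860 to 2840 TPM in which Tex101 made up nearly everything, and the acrosomal gene Acr was at 0 in all 7 libraries. None of the 386 genes is on these other lists, and the part of other cells in the results below was not tested. In bulk libraries fewer cells of a type and less RNA per cell cannot be told apart.

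The median gene with a moderate summit stood at 59.0, 56.9 and 52.9 TPM in the 3 Stra8-deficient libraries, 53.7 and 50.4 in the low-STRA8 libraries and 73.8 and 75.4 in the high-STRA8 libraries. Both high-STRA8 libraries lay above all 5 others. Over all tested genes the median of the group means was 26.5, 22.2 and 25 TPM, and over genes with a strong summit it was 62.4, 63.3 and 98.6 TPM.

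In high-STRA8 against Stra8-deficient cells, 197 of the 384 genes (51.3%) were called higher and 18 (4.69%) lower by edgeR's quasi-likelihood test at an adjusted p under 0.05, and 169 were not called. Over all tested genes 18.8% were called higher and 18.2% lower. The median log2 fold change was 0.40 (quartiles 0.08 to 0.82), or 1.32-fold, against −0.02 over all genes, and 311 genes (81.0%) had a positive value. A change of over 2-fold upward was reached by 60 genes (15.6%), against 7.4% of all genes. Without high-STRA8 replicate 2 the median of the set was 0.36, against −0.02 over all genes, and without high-STRA8 replicate 1 it was 0.41 against −0.02. Fewer of the 384 genes were called higher and lower in both of these fits. Without Stra8-deficient replicate 3, 10 (2.6%) were called lower. The shares over all genes in these smaller fits are not given.

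The shares stood in the order of the summit sets. Genes with a strong summit were called higher in 70.5% and lower in 1.38%, with a median log2 fold change of 0.67. A gene with summits of both kinds could count in both sets, as with Arid1a, whose strong summit scored 50.53 in replicate 1. Genes with a summit under 30 that had a partner in 1 other replicate were called higher in 35.9% and lower in 8.17% (median 0.20), and those with a partner in neither in 20.2% and 16.0% (median −0.01). Genes without any summit of replicate 1 within 1 kb were called higher in 8.9% and lower in 23.2% (median −0.15). The 386 summits thus fell between strong and less reproducible summits in both directions, as values side by side with no test. The sets also differed in level. Median TPM in Stra8-deficient cells was 62.4 at strong summits, 55.9 at the 386, and 55.4 and 44.9 with a partner in 1 or in neither replicate. It was 15.4 for genes without a summit, and the part of level in the shares was not tested.

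**Figure D4:**
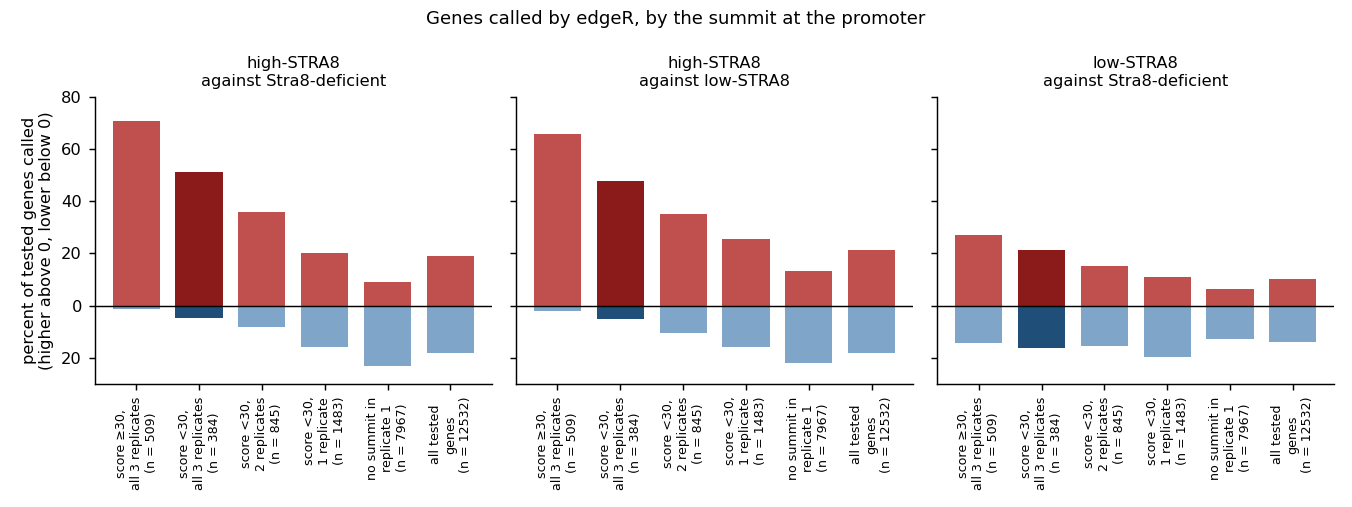
Percent of tested genes called higher (above 0) and lower (below 0) by edgeR at an adjusted p under 0.05 in the 3 comparisons, by the kind of summit at the promoter, with genes of the 386 summits in the darker bars. The share called higher falls from 70.5% at strong summits to 51.3% at the 386 summits and 8.9% without a summit in high-STRA8 against Stra8-deficient cells.

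Within the set, the score and the number of matches moved with the response only weakly. The rule had cut the replicate 1 scores at 30, which limits what they can show. Across that cut the share called higher was 51.3% here and 70.5% at strong summits. Of genes whose summit scored 20 to under 30 in replicate 1, 107 of 200 (53.5%) were called higher, from 10 to under 20, 79 of 161 (49.1%), and under 10, 11 of 23 (47.8%). Spearman's rho between the log2 fold change and the score over the 384 genes was 0.07, 0.17 and 0.07 in replicates 1, 2 and 3, and 0.13 for the number of CNCCTCAG matches. Of genes with no match 165 of 329 (50.2%) were called higher and 18 lower, with 1 match 29 of 51 (56.9%) and 0 lower, and with 2 matches 3 of 4. Genes whose summit was within 100 bp of a TSS were called higher in 116 of 209 cases (55.5%) and the others in 81 of 175 (46.3%). At promoters with the start of a long non-coding RNA 18 of 47 (38.3%) were called higher and 6 lower, and at the others 179 of 337 (53.1%) and 12.

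Genes of meiotic chromosomes and recombination were among those that rose. Prdm9, the histone methyltransferase that places recombination hotspots, stood at 29.0, 25.7 and 21.4 TPM in Stra8-deficient, 29.7 and 21.2 in low-STRA8, and 132 and 158 in high-STRA8 cells. Low-STRA8 and Stra8-deficient values overlapped, while high-STRA8 values were well above both, and the log2 fold change of high-STRA8 against Stra8-deficient was 2.59 (SE 0.159, edgeR adjusted p 5.47e-05). Its summit, with scores of 28.1, 37.17 and 20.94, lay 269 bp downstream of the TSS and its window holds the match printed above. Sycp3, a component of the lateral element of the synaptonemal complex, stood at 1136, 975 and 585 TPM, 899 and 709 TPM, and 1980 and 2204 TPM in the same order. It rose by a log2 fold change of 1.29 (SE 0.22, edgeR adjusted p 0.00267), with the 3 Stra8-deficient libraries widely spread. Tex12, of the central element of that complex, stood at 278, 235 and 202 TPM, 369 and 290 TPM, and 637 and 597 TPM, a log2 fold change of 1.43 (SE 0.129, edgeR adjusted p 0.00015), with low-STRA8 cells in between.

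Spo11, the enzyme that makes meiotic double-strand breaks, was scarce in every library, at 2.49, 1.67 and 2.08 TPM, 3.66 and 4.10 TPM, and 2.41 and 2.64 TPM in Stra8-deficient, low-STRA8 and high-STRA8 cells. High-STRA8 and Stra8-deficient values overlapped (log2 fold change 0.37, SE 0.318, edgeR adjusted p 0.393), although its summit scored 13.02, 10.66 and 9.47 and lay 37 bp upstream of the TSS. Wapl, which releases cohesin from chromosomes, was not called either, with a log2 fold change of 0.14 (SE 0.124, edgeR adjusted p 0.402). Over the whole lists of meiotic genes, of which the listed members are a few, 22 of 34 axis, cohesin and synapsis genes were called higher and 1 lower, and 30 of 39 recombination genes were higher and 2 lower.

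Genes of DNA replication also rose. Of the 7 with a moderate summit, Mcm5, Mcm6, Mcmbp, Gins1, Pola2, Rrm1 and Dut, 6 were called higher in high-STRA8 against Stra8-deficient cells, and 55 of 76 over the whole list were higher and 2 lower. Pola2, a subunit of DNA polymerase alpha-primase, stood at 30.8, 30.9 and 28.7 TPM in Stra8-deficient, 49.3 and 47.4 in low-STRA8, and 77.9 and 81.8 in high-STRA8 cells. The 3 groups did not overlap, and the log2 fold change of high-STRA8 against Stra8-deficient was 1.49 (SE 0.0874, edgeR adjusted p 5.47e-05). Gins1, part of the GINS complex of the replicative helicase, stood at 19.9, 23.2 and 19.3 TPM, 57.9 and 46.2 TPM, and 72.7 and 74.4 TPM, with low-STRA8 close to high-STRA8. Its log2 fold change was 1.88 (SE 0.142, edgeR adjusted p 7.7e-05). Rrm1, the large subunit of ribonucleotide reductase, stood at 96.8, 103 and 101 TPM, 197 and 139 TPM, and 267 and 253 TPM, a log2 fold change of 1.45 (SE 0.127, edgeR adjusted p 0.000132). Dut, which removes dUTP, was not called (log2 fold change 0.23, edgeR adjusted p 0.108).

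The 4 cell cycle regulators of the set were also called higher, whereas the whole list was split, with 35 higher and 23 lower of 87. Wee1, a kinase that holds back entry into M phase, stood at 50.6, 58.6 and 42.4 TPM, 82.5 and 68.7 TPM, and 94.2 and 91.2 TPM, a log2 fold change of 0.96 (SE 0.127, edgeR adjusted p 0.000774). Cdkn2c, the CDK4 and CDK6 inhibitor p18, stood at 20.5, 15.5 and 23.6 TPM, 39.2 and 28.3 TPM, and 38.0 and 38.1 TPM, a log2 fold change of 1.0 (SE 0.175, edgeR adjusted p 0.00289), and low-STRA8 and high-STRA8 values overlapped. Anapc5, a subunit of the anaphase-promoting complex, changed less (log2 fold change 0.43, SE 0.0865, edgeR adjusted p 0.00541) and was not called without high-STRA8 replicate 2. Plk4, the kinase that starts centriole duplication, had 0.39 (edgeR adjusted p 0.0192).

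Of 4 genes of somatic DNA repair and checkpoints, 3 were called higher, against 33 higher and 9 lower of 88 over the list. Brip1, a helicase that works with BRCA1, stood at 19.4, 19.3 and 14.6 TPM, 27.7 and 20.5 TPM, and 63.2 and 60.2 TPM, with a log2 fold change of 1.89 (SE 0.144, edgeR adjusted p 8.1e-05). Fancc, of the Fanconi anaemia core complex, had 1.34 (SE 0.163, edgeR adjusted p 0.000556), and Nbn, of the MRN complex that senses breaks, had 1.24 (SE 0.115, edgeR adjusted p 0.000169). Rif1, which acts on break repair and replication timing, was not called (log2 fold change 0.11, edgeR adjusted p 0.652).

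Among 13 chromatin regulators 6 were called higher and 0 lower, against 38 and 17 of 124 on the whole list. Kdm4b, a demethylase of histone H3 lysine 9, stood at 9.43, 10.9 and 8.07 TPM, 6.35 and 5.87 TPM, and 16.1 and 17.6 TPM, a log2 fold change of 0.93 (SE 0.133, edgeR adjusted p 0.00114). The H3 lysine 4 demethylase Kdm5a had 0.88 (SE 0.11, edgeR adjusted p 0.000622), and Brdt, the testis-specific bromodomain protein, 0.78 (SE 0.124, edgeR adjusted p 0.00184). Mga and its partner Max, basic helix-loop-helix proteins of the MYC network, had 0.55 (edgeR adjusted p 0.0196) and 0.49 (edgeR adjusted p 0.0135). Of 5 germ cell RNA regulators 2 were called higher, against 19 higher and 11 lower of 64 on the list. These were Cnot6l, a deadenylase, at 70.6, 57.5 and 55.6 TPM, 78.0 and 72.4 TPM, and 111 and 107 TPM (log2 fold change 1.07, SE 0.146, edgeR adjusted p 0.000891), and the RNA-binding protein Elavl2 (0.83, SE 0.134, edgeR adjusted p 0.00204). Tdrkh, of the piRNA pathway, had 0.32 (edgeR adjusted p 0.0604) and the germ cell helicase Ddx4 0.08 (edgeR adjusted p 0.613). Of 4 nuclear transport genes 2 were called higher, against 18 higher and 6 lower of 56 on the list: the nucleoporin Nup214 (0.64, SE 0.109, edgeR adjusted p 0.00248) and the importin alpha exporter Cse1l (0.47, SE 0.111, edgeR adjusted p 0.0107), the latter not when either high-STRA8 library was left out, and the exportin Xpo4 had 0.35 (edgeR adjusted p 0.0777).

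Besides Stra8 and Prdm9, the largest increases were in genes outside the lists above. Acat2, a cytosolic acetyl-CoA acetyltransferase, stood at 21.7, 17.7 and 20.6 TPM in Stra8-deficient, 84.0 and 47.4 in low-STRA8, and 162 and 163 in high-STRA8 cells. The 3 groups were well apart, with a log2 fold change of 3.09 for high-STRA8 against Stra8-deficient (SE 0.199, edgeR adjusted p 5.77e-05), while its summit, 6 bp upstream of the TSS, scored 19.02, 22.04 and 14.81 and had no CNCCTCAG. Wbp2nl, a protein of the sperm head, stood at 5.97, 6.87 and 5.60 TPM, 26.4 and 14.5 TPM, and 47.55 and 49.99 TPM, a log2 fold change of 3.07 (SE 0.231, edgeR adjusted p 7.6e-05), at a summit of only 10.96, 15.75 and 14.83. Hykk, hydroxylysine kinase, stood at 1.14, 0.457 and 0.581 TPM in Stra8-deficient cells and rose to 5.01 and 6.11 TPM in high-STRA8 cells, with a log2 fold change of 3.03 (SE 0.357, edgeR adjusted p 0.000487). Ucp2, a mitochondrial carrier, rose by 2.20 (SE 0.29, edgeR adjusted p 0.000761) and Baiap2, an adaptor of the actin cytoskeleton, by 2.04 (SE 0.145, edgeR adjusted p 6.7e-05).

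**Figure D5:**
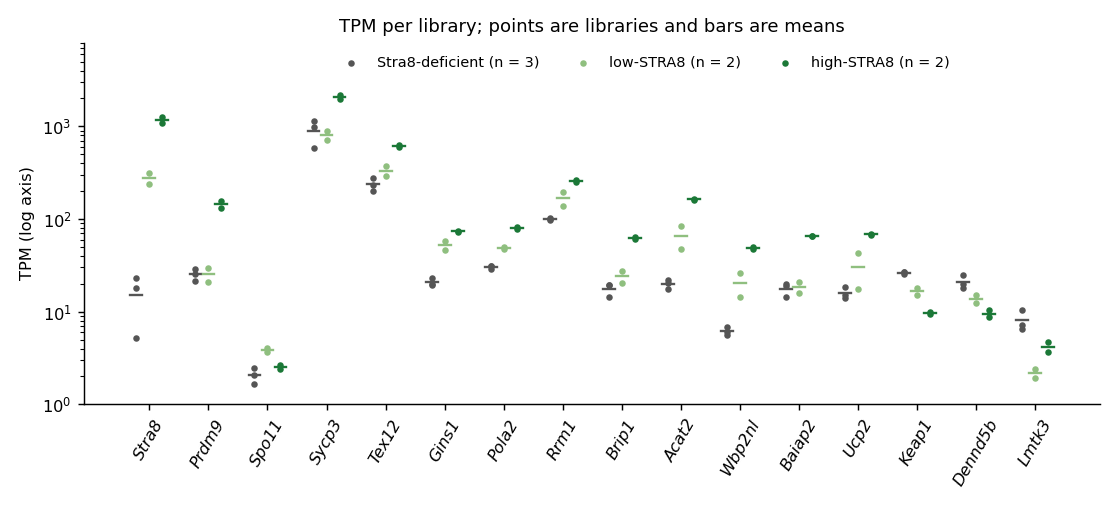
TPM on a log axis of 16 of the genes in 3 Stra8-deficient (grey), 2 low-STRA8 (light green) and 2 high-STRA8 (dark green) libraries, with points for libraries and bars for means. Prdm9 and Baiap2 stand apart in high-STRA8 cells alone, Gins1 and Pola2 are raised in low-STRA8 cells as well, and Keap1 and Dennd5b fall from Stra8-deficient to high-STRA8 cells.

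Of the 18 genes called lower, the largest fall was that of Keap1, the adaptor that brings NRF2 to a ubiquitin ligase. It stood at 26.8, 25.3 and 27.0 TPM in Stra8-deficient, 15.2 and 18.1 in low-STRA8, and 9.84 and 9.40 in high-STRA8 cells. The groups did not overlap and the log2 fold change was −1.37 (SE 0.139, edgeR adjusted p 0.000251). Dennd5b, a RAB exchange factor, followed with −1.05 (SE 0.168, edgeR adjusted p 0.00192). The calls of the next were less firm. Lmtk3, a membrane kinase (−0.84, edgeR adjusted p 0.029), Fbxw4, an F-box protein (−0.83, edgeR adjusted p 0.0223), Apbb2, an adaptor that binds the amyloid precursor protein (−0.83, edgeR adjusted p 0.0115), and Gdpd1, a phosphodiesterase (−0.75, edgeR adjusted p 0.0148), were no longer called without high-STRA8 replicate 2. The calls of Lmtk3 and Fbxw4 were also lost without high-STRA8 replicate 1 or Stra8-deficient replicate 2 or 3, and that of Gdpd1 without high-STRA8 replicate 1 or Stra8-deficient replicate 3. A CNCCTCAG within 50 bp of the summit was present in 0 of the 18, as it was absent from 330 of the 386 windows.

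The 4 genes with 2 matches differed. Pik3c2a, a lipid kinase of endocytosis, stood at 50.8, 37.9 and 33.7 TPM, 49.9 and 39.4 TPM, and 101 and 112 TPM, a log2 fold change of 1.53 (SE 0.188, edgeR adjusted p 0.000569). Numb, an adaptor that restrains Notch signalling, and Fnbp1l, a membrane-bending protein, rose by 0.73 (SE 0.115, edgeR adjusted p 0.00176) and 0.69 (SE 0.136, edgeR adjusted p 0.00494). Htt, the huntingtin gene, stood at 44.6, 43.2 and 35.3 TPM, 25.9 and 23.8 TPM, and 45.1 and 46.9 TPM, and was not called (0.26, SE 0.103, edgeR adjusted p 0.0786), although its partner summit in replicate 2 scored 48.02. Just under the limit of 30, Ifnar1 rose by 1.05 (SE 0.0901, edgeR adjusted p 0.000124), and Phf21a was not called (0.32, edgeR adjusted p 0.0815). Just above it, Usp31 rose by 0.75 (SE 0.141, edgeR adjusted p 0.0041) and Ppp1r3e by 1.07 (SE 0.356, edgeR adjusted p 0.0446).

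Among the most abundant genes, Ptma, prothymosin alpha, stood at 4224, 5704 and 4834 TPM, 5356 and 4505 TPM, and 7443 and 6699 TPM and rose by 0.94 (SE 0.119, edgeR adjusted p 0.000654). Mt2, a metallothionein, fell from 1465, 1529 and 1476 TPM to 1097 and 1261 TPM (log2 fold change −0.50, SE 0.13, edgeR adjusted p 0.0165), a call that was lost without high-STRA8 replicate 2 or Stra8-deficient replicate 3. P4hb, protein disulfide isomerase, was not called (0.13, edgeR adjusted p 0.484).

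By family, 9 of 12 zinc finger proteins of the set were called higher and 1 lower, against 72 and 74 of 401 over the family. Of 14 genes of ubiquitin ligases, conjugases and proteases 6 were higher and 2 lower, against 73 and 61 of 279. Of 6 splicing factors 4 were higher and 0 lower, against 34 and 6 of 115, and of 5 RNA polymerase and Mediator subunits 3 and 1, against 27 and 18 of 103. Of 4 centrosome and cilium genes 3 were higher and 0 lower, against 29 and 4 of 78, and of 4 kinesin, dynein and kinetochore genes 2 and 0, against 36 and 12 of 92. Of 6 RAB and vesicle coat genes 3 were higher and 0 lower, against 34 and 24 of 143. Of 3 aminoacyl-tRNA synthetases 1 was higher, against 7 higher and 5 lower of 34, and of 2 mitochondrial ribosomal proteins 1, against 8 and 18 of 78. Neither of 2 translation initiation factors was called, against 11 higher and 8 lower of 54. The same held for 2 proteasome genes, against 7 and 10 of 46, and for 2 oxidative phosphorylation subunits, against 4 and 12 of 81. The set, with 384 of the 12532 tested genes, held none of 83 tested cytosolic ribosomal proteins and none of 208 tested solute carriers. Whether these absences go beyond the small share of genes in the set was not tested.

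Low-STRA8 libraries differed from the others by transcript length, which bears on both comparisons that use them. Over the 1806 tested genes with an effective length of 5 kb or more, the median deviation of log2(TPM + 1) from the gene's mean was −0.36 and −0.39 in the low-STRA8 libraries, 0.04 to 0.26 in the Stra8-deficient and 0.12 and 0.14 in the high-STRA8 libraries. Spearman's rho between length and log2 fold change over the 384 genes was −0.53 for low-STRA8 against Stra8-deficient and 0.44 for high-STRA8 against low-STRA8, but 0.01 for high-STRA8 against Stra8-deficient. Over all 12532 genes it was −0.42, 0.34 and 0.05. A fit that removed each library's length trend was therefore added after the data were seen. It called 203 genes (52.9%) higher and 20 (5.21%) lower in high-STRA8 against Stra8-deficient cells, against 19.6% and 19.4% of all genes.

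In high-STRA8 against low-STRA8 cells, 183 of the 384 genes (47.7%) were called higher and 20 (5.21%) lower, against 21.4% and 18.3% of all tested genes. The median log2 fold change was 0.36 (quartiles 0.00 to 0.79), against 0.01 over all genes. With the length trend removed, 160 (41.7%) were higher and 20 (5.21%) lower, against 18% and 17.6% of all genes. Genes with a strong summit were called higher in 65.6% and lower in 2.16%. This comparison uses the same high-STRA8 libraries as the one above. Without high-STRA8 replicate 2 the median log2 fold change of the set was 0.34, against −0.01 over all genes. Leaving out high-STRA8 replicate 1 gave 0.37 against 0.0, and leaving out low-STRA8 replicate 2 gave 0.36 against −0.01. Fewer of the 384 genes were called higher and lower in each of these fits, and the shares over all genes there are not given.

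Of the named meiotic genes Prdm9 had the largest log2 fold change, 2.44 (SE 0.182, edgeR adjusted p 0.000418), followed by Sycp3 with 1.25 (SE 0.248, edgeR adjusted p 0.0059) and Tex12 with 0.75 (SE 0.143, edgeR adjusted p 0.005). Baiap2, with 1.80 (SE 0.165, edgeR adjusted p 0.000558), Brip1, with 1.27 (SE 0.161, edgeR adjusted p 0.00122), and Nbn, with 1.32 (SE 0.13, edgeR adjusted p 0.000627), were likewise higher in high-STRA8 cells. Of the 7 replication genes 2, Pola2 and Rrm1, were called higher, against 37 higher and 5 lower of 76 on the list, and of the 4 cell cycle regulators 0, against 26 and 23 of 87. With the length trend removed 3 of the 7 were called higher, Gins1 being added with 0.67 (edgeR adjusted p 0.0141), against 41 higher and 3 lower of 76. Of the 4 cell cycle regulators 0 were called in that fit, against 28 higher and 20 lower of 87. The calls of Sycp3, Pola2 and Rrm1 were lost without high-STRA8 replicate 2, and that of Rrm1 also without high-STRA8 replicate 1 or low-STRA8 replicate 2. Among long genes Cenpf, a large kinetochore protein, had 3.50 (edgeR adjusted p 0.000417).

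In low-STRA8 against Stra8-deficient cells the genes were split: 82 (21.4%) were called higher and 62 (16.1%) lower, against 10.2% and 13.9% of all tested genes, with a median log2 fold change of 0.12 (quartiles −0.22 to 0.37). The split followed length. Of 69 genes under 1.5 kb, 29 were higher and 1 lower, and of 77 genes of 5 kb or more, 4 were higher and 39 (50.6%) lower, against 44.2% lower among all genes of that length. With the length trend removed, 95 (24.7%) were higher and 30 (7.81%) lower, against 9.46% and 8.32% of all genes. Limma on log2(TPM + 1) gave 34 higher and 93 lower, with a median of −0.06 against −0.15 over all genes. Without low-STRA8 replicate 1 the median of the set was 0.13, against −0.02 over all genes, and without high-STRA8 replicate 2 it was 0.13 against 0.04. Fewer of the 384 genes were called higher and lower in both of these fits. Without Stra8-deficient replicate 2, 53 (13.8%) were called higher and 41 (10.7%) lower, with a median of 0.11 against 0.02 over all genes. The shares over all genes with limma and in these smaller fits are not given.

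Replication genes rose already at low STRA8. All 7 were called higher in low-STRA8 against Stra8-deficient cells, among 45 higher and 3 lower of 76 over the list. With the length trend removed all 7 were called higher as well, among 46 higher and 2 lower of 76. Gins1 had a log2 fold change of 1.52 (SE 0.142, edgeR adjusted p 0.00149), Mcm5 1.10 (edgeR adjusted p 0.00284), Rrm1 0.92 (SE 0.127, edgeR adjusted p 0.00288) and Pola2 0.88 (SE 0.0878, edgeR adjusted p 0.0015). Of the 4 cell cycle regulators 3 were also higher, among 18 higher and 11 lower of 87 over the list. These were Cdkn2c with 1.02 (SE 0.175, edgeR adjusted p 0.00609), Wee1 with 0.77 (SE 0.127, edgeR adjusted p 0.00539) and Anapc5 with 0.32 (SE 0.0867, edgeR adjusted p 0.0307). The call of Anapc5 was lost when any single library other than Stra8-deficient replicate 3 was left out. Acat2 (1.89, SE 0.195, edgeR adjusted p 0.00159) and Wbp2nl (1.92, SE 0.229, edgeR adjusted p 0.00197) had risen part of the way. Prdm9 (0.16, edgeR adjusted p 0.513) and Sycp3 (0.04, edgeR adjusted p 0.924) were not called, and Spo11 was higher by 1.07 (SE 0.309, edgeR adjusted p 0.039), a call that was lost without low-STRA8 replicate 2, without any 1 of the Stra8-deficient or high-STRA8 libraries, and with the length trend removed.

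Genes of long transcripts made up many of the decreases at low STRA8. Among the 13 chromatin regulators 0 were called higher and 5 lower, Mga, Arid1a, Ino80, Nsd1 and Kat6b, with log2 fold changes from −1.16 to −0.92, and 51 of 124 on the whole list were lower. With the length trend removed the numbers were 1 higher and 2 lower of the 13, against 11 and 24 of 124 on the whole list. Cenpf fell by 2.45 on the log2 scale (edgeR adjusted p 0.00149). Htt, lower by 0.53 (SE 0.106, edgeR adjusted p 0.0104), turned with the length trend removed to 0.50 (edgeR adjusted p 0.00646), so that its direction depends on that step. In high-STRA8 against low-STRA8 cells its 0.79 (SE 0.115, edgeR adjusted p 0.00188) turned to −0.29 (edgeR adjusted p 0.036).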

How the data were processed

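STRA8 ChIP-seq (3 Stra8 FLAG/FLAG, 3 wild type) and RNA-seq (3 Stra8-deficient, 2 low-STRA8, 2 high-STRA8) were used; input libraries were not analysed here. The authors aligned ChIP reads to mm10 with Bowtie 1.2.0 and called peaks in each replicate with MACS2 2.1.1.20160309 against its input, with the deposited summit score being the −log10 p-value; ChIP read depth is not given in the summit lists. The authors estimated transcript levels with kallisto 0.43.0, and deposited estimated counts, TPM and normalized counts (signal), the last used to check the gene join.

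Estimated counts were summed by gene, rounded and tested with edgeR 4.0.16 (TMM, quasi-likelihood, all 7 libraries, group only, Benjamini-Hochberg over genes above 1 TPM in at least 1 library). 12532 of 12545 expressed genes were joined to GENCODE, with 90.7 to 93.4% of counts. The biological coefficient of variation was 0.173 at 4 residual degrees of freedom. P-values measure the spread between these libraries, which all were prepared together. TSSs were those of basic protein-coding transcripts. Effective length was kallisto's. Long non-coding RNA starts came from the same annotation.

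Named genes were the 8 largest increases and 6 largest decreases in high-STRA8 against Stra8-deficient cells (called, groups not overlapping, with a group mean of 5 TPM or more), up to 3 of lowest adjusted p per gene list, the 4 summits with most motif matches, the 2 nearest to 30 on either side, and the 4 with the highest TPM; others were named after their values were seen. The summits and gene lists were chosen with earlier results of these data known. DESeq2 1.42.0, limma 3.58.1 (pseudocount 1) and other limits on score, distance and window served as alternatives. Some genes that the rule names are not reported here.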

Additional observations from a re-analysis of the deposited data

How the results depend on the processing

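Of 111 alternatives to the counts and shares of the set, 87 kept the value and 24 moved it by over 1.5 times or beyond its interval. In high-STRA8 against Stra8-deficient cells the share called lower (4.69%) became 2.86% with a replicate block and 7.29% with limma on log2(TPM + 1). In low-STRA8 against Stra8-deficient cells the share called higher (21.4%) became 13.8% with only those groups in the fit and 8.85% with limma, and the share called lower (16.1%) 24.2% with limma and 7.81% with the length trend removed. Limma thus turned the balance of that comparison, with the median of the set going from 0.12 to −0.06. Leaving out 1 library at a time gave 33.3 to 52.6% higher and 0.781 to 4.69% lower for high-STRA8 against Stra8-deficient, 21.9 to 49.0% and 0.521 to 5.47% for high-STRA8 against low-STRA8, and 12.5 to 23.2% and 8.33 to 17.7% for low-STRA8 against Stra8-deficient; a group left with 1 library is assumed to vary like the others. With DESeq2 the shares higher were 52.3, 49.7 and 25.8% in these comparisons. Apart from the fit with the length trend removed, shares over all genes under these alternatives are not given. The shares of the set under them therefore cannot be set against the shares over all genes in the main fit. Limma moved the median of all genes to −0.08, 0.11 and −0.15. The set held 185 summits at a score under 20 and 207 with partners within 100 bp, and CNCCTCAG was in 23.3% of windows of 200 bp and 5.96% of windows of 50 bp. Replicate numbers did not pair the libraries: deviations of same-numbered libraries correlated at −0.166 to −0.029, and the replicate block gave 44.3, 46.6 and 15.9% higher. With low-STRA8 numbers crossed in the block, chosen after seeing the data, 182 were higher and 23 lower in high-STRA8 against low-STRA8 cells.

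For the named genes, 1320 of 1493 alternatives kept direction and call, 164 lost the call, 6 gained it and 3 reversed. With the length trend removed Htt became −0.29 in high-STRA8 against low-STRA8 and 0.50 in low-STRA8 against Stra8-deficient cells, and with limma Wapl became −0.03 in high-STRA8 against Stra8-deficient cells; the cause was not tested. ChIP read depth was not used here, so that a missing partner summit cannot be told apart from a shallow library.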

Other observations

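Long non-coding RNAs that start beside the summits had levels of their own, given in TPM from the kallisto tables and not tested. Of 39 with a level, 25 exceeded 1 TPM in at least 1 library. Brip1os, opposite Brip1, stood at 4.29, 3.92 and 4.10 TPM in Stra8-deficient, 5.84 and 5.55 in low-STRA8, and 10.1 in both high-STRA8 libraries, with the groups apart and in the order seen for Brip1. 1700086P04Rik, opposite the ubiquitin ligase gene Rnf19b, went the other way, at 4.78, 3.46 and 6.23 TPM, 3.73 and 4.97 TPM, and at most 1.25 TPM. 1700120B22Rik, opposite Herc4, was the most abundant, at 33.7, 32.5 and 32.0 TPM, 26.3 and 28.6 TPM, and 32.3 and 42.8 TPM. Its Stra8-deficient and high-STRA8 values overlapped, and both low-STRA8 values lay below them.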
